A study of Mus musculus with 2 samples.

Results

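The Cd163/Lyve1-positive macrophages described here were 295 cells of the 11362 cells kept from acutely injured mouse quadriceps, 219 of 6735 on day 1 and 76 of 4627 on day 3. A cell was included when Cd163 and Lyve1 together had at least 3 unique molecular identifiers (UMIs, each marking 1 captured transcript), the macrophage genes Fcgr1, Adgre1 and Csf1r together had at least 2, collagen and decorin transcripts took less than 0.3% of its UMIs, and the endothelial genes Pecam1 and Cdh5 together had fewer than 3. Since measured values of Cd163 and Lyve1 chose these cells, their levels are given as a description. The 6644 cells that met every other condition, 3614 on day 1 and 3030 on day 3, are called the other macrophages.

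The study injured the quadriceps of male wild-type (WT) C57BL/6J mice by an intramuscular injection of BaCl2, a salt that kills myofibres, and profiled cryopreserved muscle mononuclear cells by droplet 3' single-cell RNA sequencing. The animals were 14 weeks old, and the muscles of 5 mice were pooled into 1 library on day 1 and of 5 mice into 1 library on day 3. Neither group carried an engineered allele or a further treatment, and uninjured muscle was not analysed here. With 1 library per day no test between days or between groups of cells could be made, and day, library, animals and the length of the barcode list (737280 barcodes on day 1 and 6794880 on day 3) cannot be told apart. Lists of these lengths come with different versions of the droplet kit, while the labels name the same kit for both days, so a difference in kit between days, and its part in each ratio of day 3 over day 1, was not tested. The libraries held 74852240 UMIs on day 1 and 102565783 on day 3, and the kept cells shared 0 barcodes, a count that checks nothing here because the barcode lists differ.

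Cd163 is the scavenger receptor that takes up haemoglobin bound to haptoglobin, and Lyve1 is a hyaluronan receptor first known from lymphatic endothelium. Macrophages that carry these receptors, often with Folr2, the folate receptor beta, and Timd4, a receptor for phosphatidylserine on dying cells, are known as long-lived resident cells of many tissues that sit near vessels and clear debris. In injured muscle they are outnumbered by macrophages that derive from blood monocytes recruited through the chemokine receptor Ccr2.

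The genomic start regions of a few genes that mark these cells are shown because Cd163 selected the cells, Ccl8 had one of the highest ratios to the other macrophages on day 1, and Pf4 and Ppbp are neighbouring genes with differing day 3 ratios. They are the 250 bases before each start in RefSeq on GRCm38.p6, plus strand. Those of Cd163 lie on chromosome 6 (chr6:124304401-124304650), those of Ccl8, a chemokine gene, on chromosome 11 (chr11:82114935-82115184), and those of the neighbouring chemokine genes Pf4 (chr5:90772185-90772434) and Ppbp (chr5:90768268-90768517) on chromosome 5, where 2371 bases separate the genes. Capitals mark matches, on either strand, to TGCTGA (a half-site of the MAF factors), GAGGAA (the core bound by PU.1) or TGANTCA (the AP-1 site).
Cd163: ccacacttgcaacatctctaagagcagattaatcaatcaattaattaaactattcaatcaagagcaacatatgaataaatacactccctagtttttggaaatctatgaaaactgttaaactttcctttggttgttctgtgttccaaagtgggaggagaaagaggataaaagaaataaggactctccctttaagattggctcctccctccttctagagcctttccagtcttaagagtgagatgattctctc
Ccl8: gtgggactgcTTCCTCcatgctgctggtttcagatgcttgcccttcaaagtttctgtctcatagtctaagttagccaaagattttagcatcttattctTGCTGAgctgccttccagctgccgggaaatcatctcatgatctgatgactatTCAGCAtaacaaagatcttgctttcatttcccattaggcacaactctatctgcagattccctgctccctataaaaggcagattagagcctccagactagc
Pf4: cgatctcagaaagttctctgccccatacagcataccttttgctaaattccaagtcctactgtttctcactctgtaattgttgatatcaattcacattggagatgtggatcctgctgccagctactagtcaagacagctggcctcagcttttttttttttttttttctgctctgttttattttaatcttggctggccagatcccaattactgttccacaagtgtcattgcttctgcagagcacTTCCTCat
Ppbp: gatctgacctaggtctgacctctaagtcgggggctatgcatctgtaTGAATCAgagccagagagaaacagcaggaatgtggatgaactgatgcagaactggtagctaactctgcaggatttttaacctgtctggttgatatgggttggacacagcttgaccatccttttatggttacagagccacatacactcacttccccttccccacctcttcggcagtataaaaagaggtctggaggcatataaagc
The Ccl8 window held 2 TGCTGA matches and 1 GAGGAA match, the Pf4 window 1 GAGGAA match, the Ppbp window 1 TGANTCA match and the Cd163 window none of these letters. Among 32851 windows of the same length, 16.1% held TGCTGA, 23.3% GAGGAA and 6.75% TGANTCA. A match describes the sequence and is neither a bound site nor a cause. In the GENCODE annotation of the same build, Cd163 spans chr6:124304656-124330527, Lyve1 chr7:110850607-110863239 on the minus strand and Folr2 chr7:101839988-101857194 on the minus strand.

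The Cd163/Lyve1-positive cells made up 5.71% of macrophages on day 1 (219 of 3833, exact 95% binomial interval 5.0 to 6.50%) and 2.45% on day 3 (76 of 3106, 1.93 to 3.05%). Of all kept cells they were 3.25% (2.84 to 3.70%) on day 1 and 1.64% (1.30 to 2.05%) on day 3. All intervals here cover counting error only, not the spread between mice, and a smaller share cannot be told apart from a larger number of other cells. Their median depth was 13114 UMIs on day 1 and 18112 on day 3, against 11184.5 and 13271.5 in the other macrophages. With a mark of 3 UMIs per 10000 in place of 3 per cell, the shares of macrophages were 4.85% and 1.35%, but with a mark of 2 Lyve1 UMIs alone they were 1.36% and 1.22%. On day 3, 7 further barcodes met the Cd163 and Lyve1 condition but were over the limit of 7.5% mitochondrial UMIs, against 0 on day 1. Whatever their genes, 1804 barcodes were over this limit on day 3 and 277 on day 1. The median mitochondrial share of the group was 2.720% on day 1 and 4.502% on day 3, and that of the other macrophages 2.487% and 4.145%. The part of this difference between the libraries in each ratio of day 3 over day 1 was not tested.

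Both selecting genes were present, but in different mixtures on the 2 days. Cd163 had 761 CPM (counts scaled to a summed total of 1000000 UMIs, exact Poisson interval 732 to 792) on day 1 and 251 CPM (227 to 277) on day 3, and Lyve1 had 111 CPM (100 to 123) and 168 CPM (148 to 189). On day 1, 157 cells had Cd163 alone, 13 had Lyve1 alone and 49 had both, whereas on day 3 the numbers were 40, 15 and 21. Cells with a Lyve1 UMI were thus 28.3% of the group on day 1 and 47.4% on day 3, or 17.0% and 26.3% after each cell was thinned to 3000 UMIs. The sum of the 2 genes ran from 3 to 68 UMIs per cell on day 1 (median 9) and from 3 to 39 on day 3 (median 6).

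**Figure D1:**
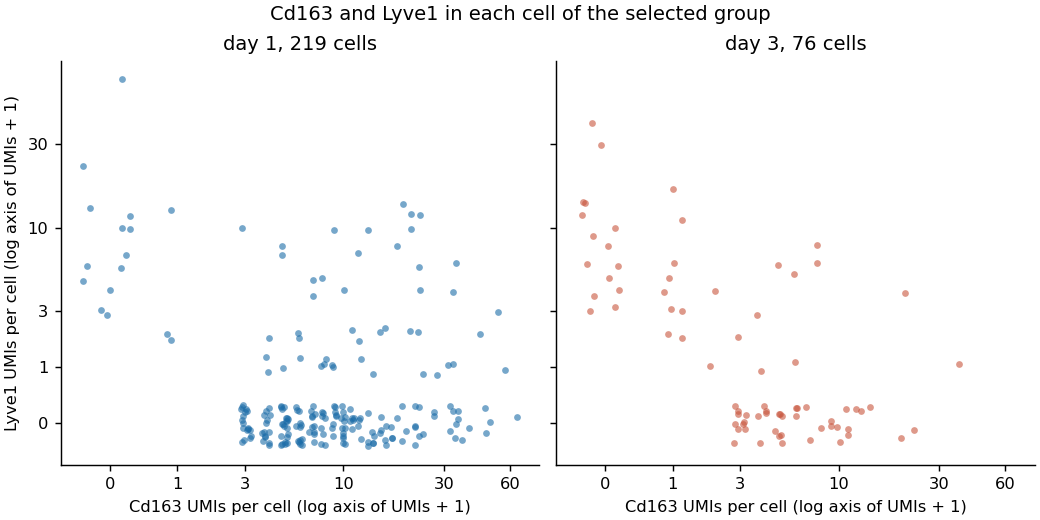
Cd163 UMIs (horizontal) and Lyve1 UMIs (vertical) of every Cd163/Lyve1-positive macrophage, 219 cells on day 1 and 76 on day 3, on log axes of UMIs + 1 with a small random shift so that points do not hide each other. On day 1 most cells lie along the bottom, where the 157 cells without Lyve1 are, and on day 3 the 15 cells with Lyve1 alone stand at the left edge.

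The border of the group was gradual on both days. The 22 day 1 cells with exactly 3 UMIs of the 2 genes had 279 CPM of Folr2 and 215 CPM of Ccl8, and the 51 other macrophages with exactly 2 had 116 and 167 CPM. On day 3 the 15 cells just inside had 574 CPM of Folr2 and 521 CPM of Ccl8, and the 28 just outside had 542 and 284 CPM.

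Cells that should lack these genes set the background for single UMIs. In S100a8/S100a9-rich cells without macrophage genes (1803 cells of median 2159 UMIs on day 1 and 164 cells of median 1620 UMIs on day 3), a Cd163 UMI was found in 0.166% and 0% of cells. Thinned to 1000 UMIs on day 1, Cd163 was seen in 0.0555% of those cells and in 52.5% of the Cd163/Lyve1-positive macrophages. Ccl8 was seen in 0.222% of them on day 1 and 1.22% on day 3, Folr2 in 0.166% and 1.83%, and Ccr2 in 0.499% and 3.05%. Pf4 stood apart, with 12.5% of the S100a8/S100a9-rich cells of day 1 and 6.71% of those of day 3 holding a UMI.

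The label of a resident-like cell was checked against markers listed with the rule and in the wider resident list. Folr2 was carried by 83.6% of the cells on day 1 and 96.1% on day 3, and Mrc1, the mannose receptor, by 97.3% and 100%. Thinned to 1000 UMIs, Folr2 was seen in 29.2% of the group and 3.18% of the other macrophages on day 1. On day 3 these shares were 38.2% and 17.5%. For Mrc1 they were 59.4% and 20.1% on day 1 and 78.9% and 20.8% on day 3. High Folr2 on day 3 was not particular to the group, since other macrophages rich in Pf4, described below, had a level near it. Against the label stood Timd4, with 7 UMIs on day 1 and 3 on day 3 in all cells together. Retnla, an alternative-activation secreted protein, was found in only 11.0% and 2.63% of cells. Its level on day 1 was nevertheless at least 2-fold higher than in the other macrophages, though 275 of its 831 UMIs came from 1 cell. Ccr2, the receptor of recruited monocytes, was at 256 CPM (239 to 274) on day 1 and 233 CPM (209 to 258) on day 3, against 368 and 271 CPM in the other macrophages. The name Cd163/Lyve1-positive is therefore used, after the rule.

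Ccl8, a ligand that attracts monocytes and other leukocytes, stood at the same level on both days in these cells summed, 697 CPM (669 to 726) and 700 CPM (659 to 743). Between cells with and without a Lyve1 UMI, described below, the direction of its difference was not the same on both days. The other macrophages had 36.8 CPM (35.0 to 38.6) on day 1 and 124 CPM (121 to 127) on day 3. It was uneven among the cells, since 37.4% on day 1 and 65.8% on day 3 held a UMI, or 27.1% and 40.8% after thinning to 3000 UMIs, and 1 cell gave 14.1% and 15.9% of its UMIs.

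Pf4, platelet factor 4, had the highest level of the 5 markers given with the rule. It had 16086 CPM (15951 to 16223) on day 1 and 4431 CPM (4328 to 4537) on day 3, with 4485 and 2256 CPM in the other macrophages. Nearly every cell of the group carried it, 99.5% and 100%, against 70.8% and 74.3% of the other macrophages. Thinned to 1000 UMIs, the shares on day 1 were 97.7% in the group, 49.9% in the other macrophages and 5.6% in the S100a8/S100a9-rich cells, and on day 3 97.4%, 52.7% and 4.88%. Retnla had 248 CPM (231 to 265) on day 1 and 7.67 CPM (3.97 to 13.4) on day 3, where 91.7% of its 12 UMIs came from 1 cell.

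**Figure D2:**
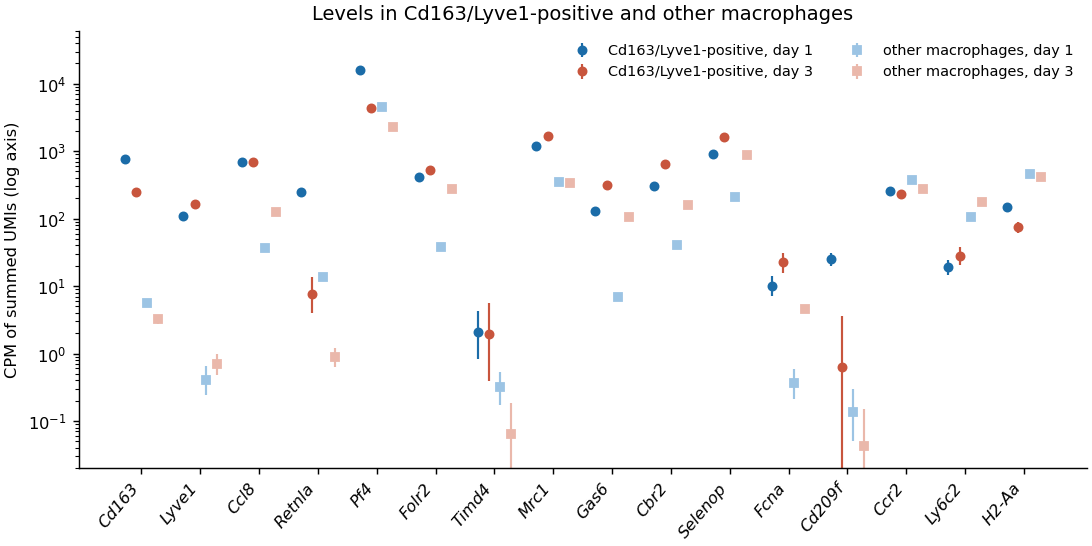
Level of 16 genes in CPM of summed UMIs on a log axis, with exact 95% Poisson intervals, in Cd163/Lyve1-positive macrophages (circles) and other macrophages (squares) of day 1 and day 3. Folr2, Mrc1, Gas6 and Cbr2 lie above the other macrophages on both days, whereas Ly6c2 and H2-Aa lie below them, and Timd4 lies near the bottom in every group.

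For the genes not used by the rule, a gene was called higher or lower when its level differed at least 2-fold among genes with 100 or more UMIs over the cells compared. Against the other macrophages, 584 of 9275 genes (6.3%) were higher and 357 (3.85%) lower on day 1, and 494 of 10244 (4.82%) were higher and 420 (4.1%) lower on day 3. The cells were selected on genes measured in the same contrast, so these shares and the counts that follow are a description only. The median gene was 0.17 higher on the log2 scale on day 1 and 0.15 higher on day 3, and with that median set to 0 the numbers became 391 higher and 488 lower on day 1 and 310 higher and 540 lower on day 3.

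Of the tissue-resident list, 13 of 18 measurable genes were higher and 0 lower on day 1, and 12 of 20 were higher and 1, Cd209a, lower on day 3. The median log2 ratio of the list was 2.09 and 1.41, beside 0.17 and 0.15 over all genes. With the median of all genes set to 0 the counts were 13 higher and 1 lower on day 1 and 12 higher and 2 lower on day 3.

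Gas6, the bridging ligand that links phosphatidylserine on dying cells to Mertk and Axl, had 129 CPM (117 to 142) on day 1 and 320 CPM (292 to 349) on day 3, with 6.91 and 107 CPM in the other macrophages. Its log2 ratio to the other macrophages was 4.22 (4.01 to 4.44) on day 1 and 1.58 (1.45 to 1.71) on day 3. Folr2 had 413 CPM (391 to 435) and 524 CPM (489 to 562), against 38.2 and 277 CPM, and its log2 ratio was 3.43 on day 1 and 0.92 on day 3.

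Other genes kept a wide gap on both days. Igfbp4, a binding protein of insulin-like growth factors, had 64.4 CPM (56.1 to 73.6) on day 1 and 294 CPM (268 to 322) on day 3, against 7.26 and 51.6 CPM. Cbr2, a carbonyl reductase, had 300 CPM (282 to 320) and 636 CPM (597 to 677), against 40.7 and 157 CPM. Mrc1 had 1205 CPM (1168 to 1242) and 1661 CPM (1598 to 1726), against 350 and 334 CPM, with a log2 ratio of 1.78 on day 1 and 2.31 on day 3.

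F13a1, the A subunit of coagulation factor XIII, was within 2-fold on day 1 with 969 CPM against 626 CPM, and was higher on day 3 with 893 CPM against 310 CPM. Fcrls and Igf1, the insulin-like growth factor gene, were higher on day 1 and within 2-fold on day 3. Fcrls had 97.6 CPM against 13.9 CPM on day 1 and 313 CPM against 279 CPM on day 3, and Igf1 had 45.1 CPM against 4.11 CPM and 83.1 CPM against 64.9 CPM.

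Leaving out the selecting gene Lyve1, scavenger and lectin receptors were higher in 6 of 10 measurable genes on day 1 and 6 of 11 on day 3, or 5 of 11 on day 3 with the median of all genes set to 0. The list shares genes with the resident list, among them Mrc1, Stab1, Clec10a, Folr2, Mgl2, Fcna, Marco, Vsig4, Cd209d and Cd209g. Of the higher genes, only Cd36 and Colec12 on day 1 and Colec12 on day 3 lay outside the resident list. Stab1, a scavenger receptor for modified lipoproteins and dying cells, had 339 CPM (320 to 359) on day 1 and 876 CPM (830 to 923) on day 3, against 149 and 389 CPM. Clec4n, the Dectin-2 lectin of inflammatory myeloid cells, was lower on day 1, with 251 CPM against 513 CPM. The calls of Stab1 on both days and of Clec4n were lost with a mark of 2 Cd163 UMIs alone.

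Leaving out the selecting gene Cd163, heme and iron genes were higher in 3 of 10 on day 1, namely Blvrb, Slc48a1 and Tfrc, and in 0 of 11 on day 3. Blvrb, the biliverdin reductase B, had 368 CPM (348 to 390) on day 1 and 335 CPM (307 to 365) on day 3, against 115 and 196 CPM in the other macrophages. Hmox1, the heme oxygenase that opens the ring of heme, had 1515 CPM (1473 to 1557) and 1279 CPM (1224 to 1336), against 846 and 705 CPM, which stayed within 2-fold on both days.

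Of 11 complement genes 5 were higher on day 1, among them C1qa, C1qb, C1qc and C4b, and C3 was lower. The C1q subunit gene C1qa, which starts the classical pathway, had 1983 CPM (1935 to 2031) on day 1 against 358 CPM, and 2565 CPM (2486 to 2645) on day 3 against 1824 CPM. C3, the central component, was lower on both days, with 28.9 CPM against 82.8 CPM and 14.1 CPM (22 UMIs) against 30.1 CPM. Of 10 complement genes on day 3 only C4b was higher, with 13 UMIs. Both day 3 calls were lost under alternatives, that of C3 at 3 per 10000 UMIs and that of C4b without the cell that held most of it.

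Genes of apoptotic cell clearance were higher in 6 of 11 on day 1 (Mertk, Gas6, Pros1, Stab1, Cd36 and C1qa) and in 2 of 11 on day 3 (Gas6 and Stab1), with 1 lower. The day 1 calls of Pros1 and Cd36 were each lost in 1 alternative, and those of Stab1 on both days with a mark of 2 Cd163 UMIs alone. Gas6, Stab1, Cd36 and C1qa also belong to lists counted above, so these counts are not separate from those. Mertk, the receptor that Gas6 and Pros1 engage, had 31.3 CPM (25.6 to 37.9) on day 1 and 40.3 CPM (31.0 to 51.6) on day 3, against 11.9 and 33.3 CPM.

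Monocyte and antigen-presentation genes lay on the other side. Of 9 monocyte genes 6 were lower on day 1 and 7 on day 3, and 0 were higher. Ly6c2, the surface marker of inflammatory monocytes, had 19.1 CPM (14.7 to 24.4) on day 1 and 28.1 CPM (20.4 to 37.8) on day 3, against 104 and 177 CPM, and Plac8 had 94.3 and 109 CPM against 302 and 341 CPM. Cx3cr1, the fractalkine receptor, had 1.79 CPM and 37.7 CPM, against 6.82 and 141 CPM.

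MHC class II genes were lower in 7 of 8 on day 1 and 6 of 8 on day 3, and 0 were higher. Low H2-Aa was not particular to the group, since the other macrophages rich in Pf4 had 63.3 CPM on day 1 and 1.33 CPM on day 3. H2-Aa had 149 CPM (136 to 162) on day 1 and 74.8 CPM (61.9 to 89.7) on day 3, against 462 and 409 CPM in the other macrophages, a call lost on day 1 with a mark of 2 Lyve1 UMIs alone. A UMI of H2-Aa was nevertheless found in more of the group's cells on day 1, 31.5% against 17.3% of the other macrophages, or 21.6% against 12.9% after thinning. On day 3 the shares were 9.21% and 22.8%, and 1 cell gave 67.5% of the UMIs in the group.

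**Figure D3:**
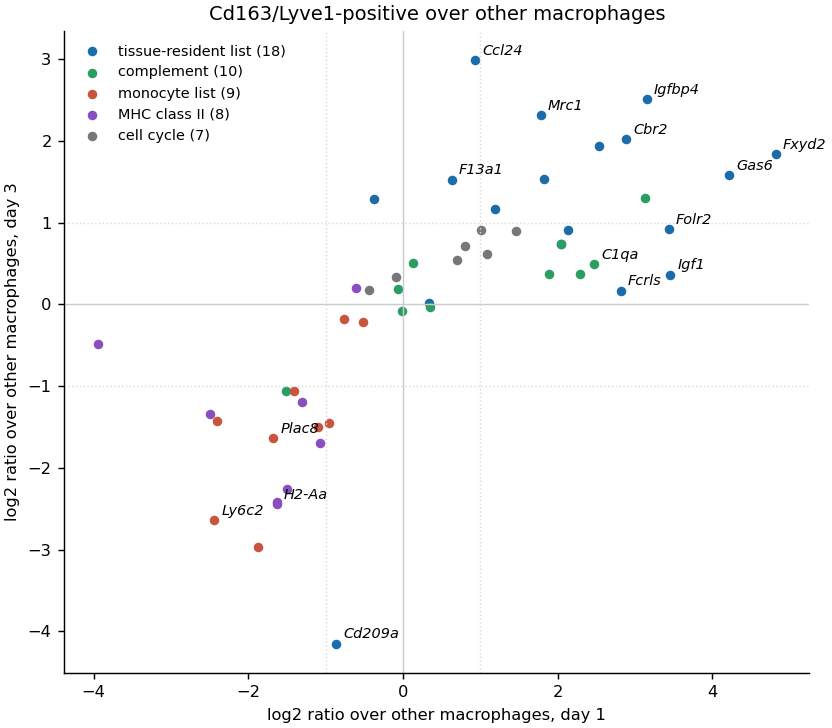
Log2 ratio of Cd163/Lyve1-positive over other macrophages on day 1 (horizontal) and day 3 (vertical) for the listed genes with 100 or more UMIs on both days, coloured by list, with dotted lines at 2-fold. Resident-list genes lie to the upper right except Cd209a, Mgl2 on day 1 and Trf, which is near 0 on day 3 (log2 ratio 0.02), monocyte and MHC class II genes mostly to the lower left, and the complement genes to the right lose most of their day 1 ratio by day 3.

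The 8 highest ratios to the other macrophages on day 1 were those of Npl, Ctla2a, Slco2b1, Fxyd2, Ctla2b, Cxcl13, Scamp5 and Ccl8. Npl, the sialic acid lyase, had 93.1 CPM (83.0 to 104) against 2.78 CPM, a log2 ratio of 5.06 (4.76 to 5.38), and 39.3% of the cells held it. Ctla2a and Ctla2b are near-identical neighbours whose reads may be shared, so each is uncertain, and 52.1% of the Cxcl13 UMIs came from 1 cell. Slco2b1, an organic anion transporter, had 34.6 CPM against 1.16 CPM and Fxyd2, a regulatory subunit of the sodium pump, 38.2 CPM against 1.35 CPM.

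The 8 lowest on day 1 were Il1rl1, Ptx3, Klrd1, Ccl17, Siglecg, H2-DMb2, Smoc2 and Acap1. All but Smoc2, with 1 UMI, had 0 UMIs in the 219 cells. Set against the limit of 3 counts that a count of 0 allows, Il1rl1, the receptor of interleukin-33, was at least 18.6-fold lower than in the other macrophages, and the dendritic-cell chemokine Ccl17 5.38-fold. The call of Il1rl1 was lost when at least 2 UMIs of Cd163 and Lyve1 were asked for (log2 ratio -0.78), and the direction of Ptx3 turned when ambient RNA was subtracted (3.71).

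On day 3 the 8 highest were Ppbp, Ednrb, Ccl24, Olfr655, Fscn1, Lrrc4, Gal and Nfib. Ppbp, the precursor of a neutrophil attractant, had 1589 CPM (1547 to 1633) on day 1 against 507 CPM, and 74.8 CPM (61.9 to 89.7) on day 3 against 6.82 CPM. Ccl24, an eosinophil attractant, had 750 CPM (721 to 780) against 392 CPM and then 44.8 CPM (34.9 to 56.6) against 5.68 CPM. Both chemokines were lower on day 3 than on day 1 in either group of macrophages, and the other macrophages rich in Pf4 had 71.7 CPM of Ppbp on day 3, about the group's level.

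Ednrb, the endothelin B receptor, had 247 CPM (231 to 265) on day 1 and 120 CPM (103 to 138) on day 3, against 109 and 14.4 CPM. Several of the day 3 ranks rested on few cells. For Ppbp, 4 of the 76 cells gave 89 of the 117 UMIs and 59 cells had 0. For others it was 1 cell, which gave 98.4% of the UMIs of Gal, 80.6% of Olfr655, 56.8% of Fscn1 and 56.5% of Nfib. The direction of these 4 genes turned under an alternative, with log2 ratios of -2.84 for Gal and Fscn1 and -2.02 for Nfib at 3 per 10000 UMIs and of -1.05 for Olfr655 in cells low in Hspa1a and Hspa1b. Lrrc4 had 20 UMIs spread over 22.4% of the cells. The 8 lowest were Spint1, Acod1, S100a9, Ear2, Klrd1, Calhm6, Pglyrp1 and Il1r2, of which all but S100a9 (3 UMIs) and Il1r2 (1 UMI) had 0 UMIs in the 76 cells.

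Chemokines were mixed. On day 1, 5 of 20 (Ccl8, Ccl12, Cxcl13, Pf4 and Ppbp) were higher than in the other macrophages and 2 lower, and on day 3 8 of 19 were higher and 2 lower, or 7 higher with the median of all genes set to 0. Ccl12 had 672 CPM (644 to 700) on day 1 and 279 CPM (253 to 306) on day 3, against 253 and 133 CPM. Ccl7, a monocyte attractant, was close to the other macrophages on day 1, with 2682 CPM against 2528 CPM, and higher on day 3, with 1801 CPM (1735 to 1869) against 770 CPM. The day 3 calls of Ccl12 and Ccl7 and the day 1 call of Ppbp were each lost in at least 1 alternative.

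Of the alternative activation list without Cd163, 4 of 14 genes were higher and 2 lower on day 1, and 7 of 13 were higher and 2 lower on day 3, or 4 higher and 4 lower on day 1 and 4 higher and 3 lower on day 3 with the median of all genes set to 0. Of the genes higher on day 3, Mrc1, Ccl24, Clec10a and Mgl2 are also in the resident list. The day 3 calls of Clec10a, Mgl2 and Chil3, the last of them lower, were each lost in at least 1 alternative. Il4ra, the receptor chain for interleukin-4 and interleukin-13, had 359 CPM (339 to 380) on day 1 and 197 CPM (176 to 220) on day 3, against 120 and 94.1 CPM, and with the median of all genes set to 0 it was within 2-fold on day 3. Maf, a transcription factor of resident macrophages, had 306 CPM (288 to 325) and 623 CPM (584 to 663), against 127 and 277 CPM. Of 16 transcription factors on day 1 and 15 on day 3 it alone was higher, beside 6.3% and 4.82% of all genes. The counts of higher factors were near these shares and are no result about the list. Lower were Bhlhe40 on day 1 and 3 genes, Nr1h3, Bhlhe40 and Hes1, on day 3. The day 3 call of Maf was lost with a mark of 2 Cd163 UMIs alone.

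Of 15 growth factor genes, 6 were higher and 0 lower on day 1, including Gdf15 and Hbegf, and 3 were higher and 3 lower on day 3. With the median of all genes set to 0 these counts were 6 higher and 3 lower and 2 higher and 5 lower. Gdf15, a stress-induced cytokine, had 252 CPM (235 to 269) on day 1 against 51.0 CPM, and 139 CPM (121 to 159) on day 3 against 168 CPM. Hbegf, an EGF receptor ligand, was higher on both days, with 65.0 CPM (56.7 to 74.3) against 20.7 CPM and 30.7 CPM (22.6 to 40.7) against 9.60 CPM. Apoe, the apolipoprotein of lipid export, was lower on day 3, with 4091 CPM against 8388 CPM, a call lost under several alternatives.

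Comparison of day 3 with day 1 within the Cd163/Lyve1-positive cells covered 5242 genes, of which 455 (8.68%) were at least 2-fold higher and 263 (5.02%) lower on day 3. The median gene was 0.19 higher on the log2 scale, and with that median set to 0 the numbers were 305 higher and 341 lower. In the other macrophages the median gene was 0.42 higher on day 3, with 2825 of 10957 genes (25.8%) higher and 644 (5.88%) lower.

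Inflammatory genes were lower on day 3 in 12 of 14, a share well above the 5.02% of all genes, with a list median of -2.42 beside 0.19 over all genes. The other macrophages had 14 of 15 lower, beside 5.88% of all their genes. Il1b, the interleukin-1 beta gene, had 3453 CPM (3390 to 3517) on day 1 and 109 CPM (93.6 to 127) on day 3, against 8119 and 370 CPM in the other macrophages. Thbs1, thrombospondin 1, had 2615 and 175 CPM, and Ptgs2, the inducible cyclooxygenase, 598 and 65.2 CPM.

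Of 16 chemokines, 10 were lower on day 3 and 0 higher, and in the other macrophages 12 of 19 were lower and 2 higher. Cxcl3, a neutrophil attractant, had 2160 CPM (2110 to 2210) on day 1 and 30.7 CPM (22.6 to 40.7) on day 3, where 47.9% of the UMIs came from 1 cell. Ccl6 had 6809 and 1881 CPM in the group and 5641 and 613 CPM in the other macrophages. Ccl7 and Ccl8 stayed within 2-fold, with log2 ratios of -0.57 (-0.64 to -0.51) and 0.01 (-0.10 to 0.11), while Ccl8 in the other macrophages was higher by 1.75 (1.68 to 1.84).

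Among the 8 lowest ratios of day 3 over day 1 were those of S100a9, Acod1, Il1a, G0s2, Cxcl5, Hdc and Cxcl3. Acod1, which makes itaconate, had 165 UMIs on day 1 and 0 on day 3, at least 25.7-fold lower. S100a9 and G0s2 are abundant in neutrophils, and all 6 measurable neutrophil genes were lower on day 3, as were 7 of 9 in the other macrophages.

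The summed neutrophil list was at 1352 CPM (1313 to 1392) on day 1 and 46.7 CPM (36.6 to 58.7) on day 3 in the group, and at 2428 and 423 CPM in the other macrophages. Its most abundant gene was S100a8, with 556 and 17.9 CPM, and Retnlg, Cxcr2 and Ly6g were at 0 on day 3. The part of this list in the inflammatory genes was not tested.

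In the other macrophages 12 of 20 resident-list genes were higher on day 3 and 3 lower, with a list median of 1.75 against 0.70 in the group. Within the group the list went in both directions, with 6 of 16 genes higher and 4 lower on day 3, beside 8.68% and 5.02% of all genes. With the median of all genes set to 0 the counts were 5 higher and 4 lower. Higher were Gas6, Cbr2, Ltc4s, Igfbp4, Fcrls and Stab1, and among the lower were Fxyd2, Ccl24 and Trf. The call of Gas6 was lost with a mark of 2 Lyve1 UMIs alone, and that of Cbr2 under several alternatives, among them the median of all genes set to 0. Igfbp4 had the log2 ratio 2.19 (1.95 to 2.43) and Ltc4s, the leukotriene C4 synthase, 2.80 (2.27 to 3.38), against 2.83 and 3.39 in the other macrophages. Mrc1 was within 2-fold at 0.46 (0.39 to 0.54), Selenop, a selenium carrier, at 0.85 (0.77 to 0.93) and F13a1 at -0.12 (-0.21 to -0.03).

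Genes of the Gpnmb/Spp1 list, which marks lipid-handling macrophages of injured tissue, were higher on day 3 in 5 of 9, a larger share than the 8.68% of all genes. In the other macrophages 6 of 9 were higher, beside 25.8% of all their genes. Gpnmb, a lysosomal glycoprotein, had 28.9 CPM (23.5 to 35.3) on day 1, with 49.5% of the UMIs from 1 cell, and 310 CPM (283 to 339) on day 3, but with a mark of 2 Lyve1 UMIs alone its log2 ratio was 0.20. The other macrophages went further, from 32.8 to 867 CPM, and their Spp1, the osteopontin gene, stood at 10817 CPM on day 3 against 5372 CPM in the group, a call of Spp1 lost under several alternatives. Trem2, a lipid receptor, had 161 CPM (148 to 175) and 606 CPM (568 to 646), against 119 and 791 CPM.

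All 10 measurable cell cycle genes were higher on day 3, with a list median of 4.57 beside 0.19 over all genes. In the other macrophages 11 of 12 were higher, with a list median of 5.06 beside 0.42 over all genes. The highest 8 ratios of day 3 over day 1 were those of Birc5, Gal, Pclaf, Hist1h1b, Ube2c, Rrm2, Tpx2 and Ifit3, and apart from Gal and Ifit3 these belong to DNA replication or division. Birc5, survivin, had 0 UMIs on day 1 and 173 on day 3, at least 124-fold higher. Mki67, the proliferation antigen, had 3.28 CPM (1.64 to 5.87) and 109 CPM (93.6 to 127), against 3.63 and 87.2 CPM in the other macrophages.

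Per cell, 3 or more UMIs of 8 division genes were found in 3 of 219 cells on day 1 (1.37%, 0.283 to 3.95%) and in 38 of 76 on day 3 (50%, 38.3 to 61.7%). In the other macrophages the shares were 0.415% and 23.1% (21.6 to 24.7%). The cells that met this mark on day 3 were deeper, with a median of 22662 UMIs against 15277, and after thinning to 3000 UMIs the shares with 3 or more were 27.6% in the group and 12.98% in the other macrophages. In levels, 0 of 12 cell cycle genes were 2-fold higher than in the other macrophages on day 3, with a list median of 0.59 beside 0.15 over all genes. Single cells of 1 library gave these shares, and no test was made.

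Among the 76 cells of day 3, the 38 with division genes had 311 CPM of Gas6 and the 38 without had 334 CPM. For Ccr2 the former had 178 CPM (152 to 207) and the latter 317 CPM (274 to 365).

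Interferon-response genes were higher on day 3 in 4 of 8, namely Rsad2, Ifit3, Irf7 and Oasl2, beside 8.68% of all genes. Ifit3 had 4 UMIs on day 1 and 113 on day 3, of which 32.7% came from 1 cell, and Rsad2, viperin, had 16.4 and 215 CPM, with 38.4% from 1 cell. Irf7, a regulator of the type I interferon genes, was more even, with 24.2 CPM (19.2 to 30.04) and 116 CPM (100 to 135). In the other macrophages 9 of 12 genes of this list were higher, beside 25.8% of all their genes.

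Beside 8.68% of all genes higher and 5.02% lower on day 3, the remaining lists were as follows. Of 8 monocyte genes 4 were lower on day 3 and of 8 complement genes 3 were lower, with 0 higher in either list. Among these, C3 turned to 0.20 on the log2 scale in cells of 5000 to 20000 UMIs, and Chil3 was within 2-fold with a mark of 2 Lyve1 UMIs alone (-0.38). Of 6 MHC class II genes Cd74 was lower, a call lost under several alternatives, or 5 of 6 with the median of all genes set to 0. Without Cd163, heme and iron genes had 2 of 10 lower and alternative activation genes 5 of 11, and growth factor genes had 4 of 10 lower, with 0 higher, and clearance genes had 2 of 9 higher, Gas6 and Stab1. Transcription factors had 4 of 13 lower and Maf higher, a call lost when the median of all genes was set to 0. Of 12 heat shock and immediate early genes, which also respond to cell isolation, 1 was higher and 1 lower. On day 1, 4 of 12 were higher than in the other macrophages, among them Hsph1 and Egr1, whose calls were lost in cells low in Hspa1a and Hspa1b. In the other macrophages 4 of 9 monocyte genes were lower on day 3, and 5 of 11 complement genes higher and 3 lower. MHC class II genes had 1 of 8 higher and 1 lower, and clearance genes 7 of 11 higher. Growth factor genes had 9 of 16 higher and 6 lower. Without Cd163, heme and iron genes had 2 of 11 higher and 2 lower, and alternative activation genes 1 of 15 higher and 7 lower. Transcription factors had 4 of 16 higher and 3 lower, and heat shock genes 6 of 12 higher and 1 lower.

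**Figure D4:**
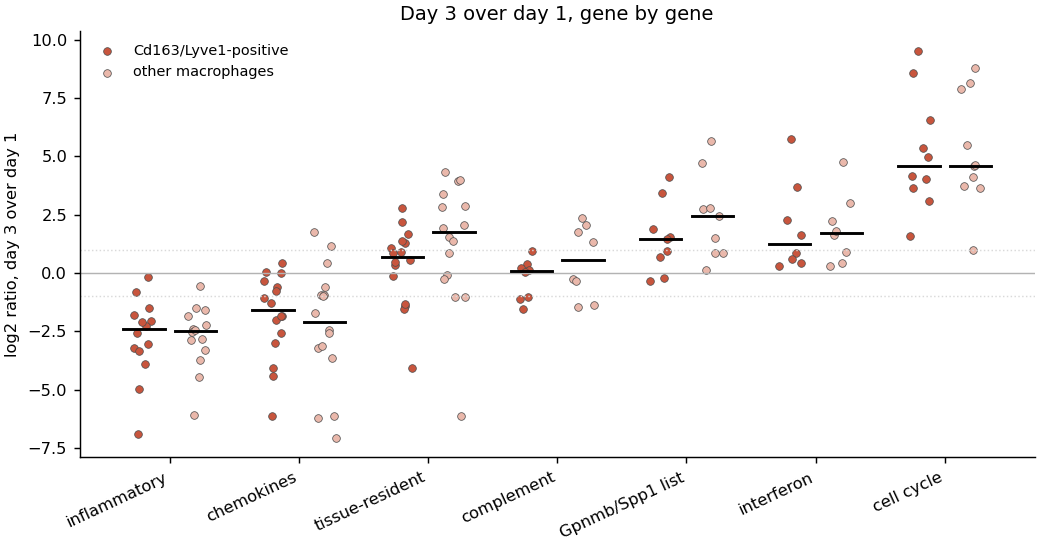
Log2 ratio of day 3 over day 1 for each gene of 7 lists in Cd163/Lyve1-positive (dark points) and other macrophages (light points), for genes with 100 or more UMIs in both, with black bars at the medians and dotted lines at 2-fold. The inflammatory and chemokine genes lie mostly below 0 and the cell cycle genes above it in both groups, while the resident-list points of the group spread less than those of the other macrophages.

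The cells of day 1 were also described by whether they held Lyve1. Lyve1 is a gene of the rule, cells at 0 of it are members through Cd163 alone, and at its level 0 UMIs in a cell is often a missed detection, so the values below are a description and do not show separate kinds of cells. The 62 cells with a Lyve1 UMI and the 157 without had nearly the same median depth, 13066 and 13115 UMIs, and the 157 all carried Cd163 by the rule. The cells with Lyve1 had 1435 CPM (1360 to 1513) of Ccl8 against 403 CPM (378 to 429), 652 CPM (602 to 705) of Folr2 against 317 CPM (295 to 341), and 245 CPM (215 to 278) of Gas6 against 82.6 CPM (71.5 to 94.97). Of the Ccl8 UMIs with Lyve1, 24.1% came from 1 cell. Hspa1a, a heat shock gene with a near-identical copy that also responds to cell isolation, had 2689 CPM with Lyve1 and 920 CPM without, and its part in these values was not tested. The cells with Lyve1 also had more Igfbp4, 165 CPM against 24.2 CPM, and more Fxyd2, 111 CPM against 9.18 CPM. Vsig4, a complement receptor of resident macrophages, had 27 UMIs in the cells with Lyve1, 37.0% of them from 1 cell, and 0 in those without.

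The single genes Il1b, Cxcl3, Ccr2, Chil3 and Fn1 were lower where Lyve1 was present on day 1. Their lists were not counted for this split, so these values are no result about inflammatory or monocyte genes as groups. Il1b had 1197 CPM (1128 to 1268) with Lyve1 and 4353 CPM (4269 to 4437) without, and Cxcl3 435 CPM (395 to 479) and 2847 CPM (2780 to 2915). Ccr2 had 107 CPM (87.1 to 130) and 316 CPM (294 to 339), and a UMI of it was found in 29.0% and 73.2% of the cells. Chil3, a monocyte chitinase-like protein, had 247 and 1012 CPM, and Fn1, fibronectin, 542 and 1988 CPM.

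Other markers were within 2-fold of each other in the 2 sets. Mrc1 had 1101 CPM with Lyve1 and 1246 CPM without, and Pf4 13366 and 17170 CPM. Ppbp was lower with Lyve1, with 935 CPM (875 to 998) against 1850 CPM (1796 to 1906).

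On day 3 the 36 cells with Lyve1 and the 40 without, of median depth 18373.5 and 17799.5 UMIs, had close levels of Folr2 (513 and 535 CPM, log2 ratio -0.06, -0.26 to 0.14) and C1qa (2506 and 2617 CPM). Igfbp4 was still higher with Lyve1, 485 CPM (436 to 538) against 124 CPM (101 to 150). The cells without Lyve1 had more Spp1, 9192 CPM (8987 to 9402) against 1105 CPM (1030 to 1183), more Gpnmb, 515 against 81.2 CPM, and more Fabp5, a fatty acid carrier, 3183 against 428 CPM. Ccr2 was at 263 CPM (227 to 302) with Lyve1 and 206 CPM (176 to 239) without, a log2 ratio of 0.35 (0.05 to 0.66).

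**Figure D5:**
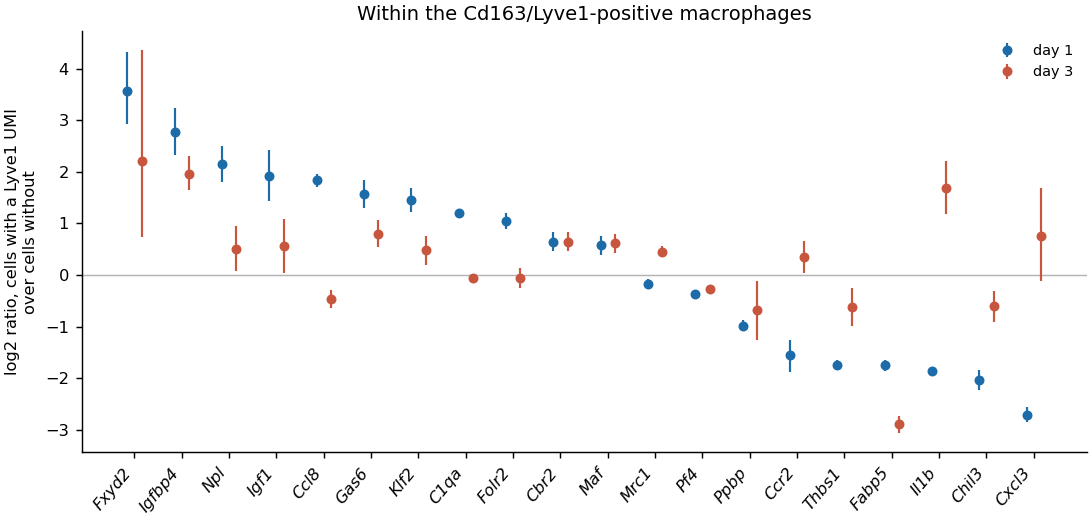
Log2 ratio of CPM in cells with a Lyve1 UMI over cells without, for 20 genes on day 1 (62 and 157 cells) and day 3 (36 and 40 cells), with exact 95% intervals that cover counting error only. Ccl8, Il1b and Ccr2 lie on opposite sides of 0 on the 2 days, whereas Igfbp4 and Fabp5 keep their side.

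Retnla marked a small set on day 1. The 18 cells with 3 or more Retnla UMIs had 589 CPM (516 to 670) of H2-Aa against 89.7 CPM (79.2 to 101) in the other 201 cells of the group, and 210 CPM (167 to 260) of Clec10a, a galactose-type lectin, against 33.2 CPM (26.9 to 40.4). Cd209f, a DC-SIGN-related lectin whose relatives share sequence, had 147 and 8.80 CPM, with 60.3% of the former from 1 cell. S100a8 was also higher in these 18 cells, 1822 CPM against 387 CPM, with 45.8% from 1 cell, and its part in the set was not tested.

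The group was also set beside the other macrophages in which Pf4 took 1% or more of the UMIs, 562 cells on day 1 and 41 on day 3. On day 1 they had as much Pf4 (18204 CPM), Ppbp (1779 CPM) and Ccl24 (1025 CPM) as the group, but 114 CPM of Folr2, 17.9 CPM of Gas6 and 157 CPM of Ccl8. Their Mrc1 on day 1 was 881 CPM, within 2-fold of the group's 1205 CPM. On day 3 the 41 cells had 833 CPM of Ccl8 and 597 CPM of Folr2, near the group's levels, but 519 CPM of Mrc1 and 91.6 CPM of Igfbp4, and their Spp1 was 18681 CPM and their Apoe 14274 CPM. Low monocyte and MHC class II genes were shared with the group. Ly6c2 was at 20.2 CPM on day 1 and 6.63 CPM on day 3 in these cells, and Cd74 at 585 and 31.8 CPM, against 907 and 383 CPM of Cd74 in the group. These cells were chosen on Pf4, and the comparison is a description.

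The MHC class II-rich other macrophages, 268 cells on day 1 and 266 on day 3, differed from the group in several resident-list genes. They had 21.6 and 48.8 CPM of Folr2, 3.84 and 21.2 CPM of Gas6, and 5086 and 5393 CPM of H2-Aa. Other listed genes were as high or higher in them, with 89.9 and 125 CPM of Clec10a against 54.0 and 79.3 CPM in the group and 101 and 73.1 CPM of Mgl2 against 6.56 and 14.7 CPM. Retnla was at 105 CPM in these cells on day 1 and 248 CPM in the group.

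Apart from the neutrophil list given above, the lists of other cell types were as follows. The lymphatic endothelial list, which matters because Lyve1 is a lymphatic gene, summed to 383 CPM on day 1 and 205 CPM on day 3, of which Pdpn gave 382 and 205 CPM. Flt4, Mmrn1 and Reln were at 0 on both days and Prox1 and Ccl21a also on day 3, and the other macrophages had 433 and 155 CPM of the list. The endothelial list, 2 of whose genes the rule limits, summed to 5.37 and 7.67 CPM, and all 6 T and NK cell genes and all 4 mast cell genes were at 0.

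The fibroblast list summed to 253 CPM on day 1, 42.3% of it from 1 cell, and 391 CPM on day 3, with Gsn, which macrophages also express, at 173 and 323 CPM. Muscle genes summed to 19.7 and 45.4 CPM, on day 3 mostly Des at 33.3 CPM, where 1 cell gave 47.9% of the list, against 7.10 and 22.6 CPM in the other macrophages, and hemoglobin genes to 2.09 CPM and 0. The B cell list summed to 9.55 and 29.4 CPM, mostly Ighm, with Cd79a and Ms4a1 at 0, the dendritic cell list to 17.6 and 28.8 CPM, and the mural and glial list to 4.48 and 5.12 CPM. The part of these lists in the results was not tested. Scrublet, a doublet caller, gave its highest scores to 21 of the 219 cells on day 1 (9.59%, against 7.30% of the other macrophages) and 2 of the 76 on day 3 (2.63%, against 2.61%).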

How the data were processed

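The authors deposited UMI counts per gene and barcode from Cell Ranger on mm10 (5.0.0 in the submitters' processing notes, 4 in the file headers), as unfiltered matrices of 32285 genes, 1 library per day. Members and gene lists were chosen with earlier results of these data known. Barcodes were ranked by UMIs, the top 7367 (day 1) or 6640 (day 3) were taken as cells, and those were kept at 1000 or more UMIs, 200 or more genes and at most 7.5% mitochondrial UMIs. Doublets were not removed, and leaving out the highest Scrublet scores was an alternative. Counts were summed per group of cells and divided by their total. Ratios had 0.5 added to each count and, where intervals are given, exact Poisson or binomial 95% limits. Genes under 100 UMIs over both groups were not called. Genes named were the 5 given markers, genes of 29 lists and the 8 highest and 8 lowest ratios of each comparison, and exceptions are stated as chosen after their values were seen. Some genes of these sets are not reported here. The analysis used Python 3.11.15, numpy 2.4.6, scipy 1.17.1, pandas 2.3.3, scanpy 1.11.5 and matplotlib 3.10.9. With 1 library per day no test was made.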

Additional observations from a re-analysis of the deposited data

Results flagged for a closer look

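Of 5241 genes with 100 or more UMIs in both groups of macrophages, 4 differed at least 2-fold between days in opposite directions in the Cd163/Lyve1-positive and the other macrophages. These differences were not tested. Ctla2a, a cysteine protease inhibitor-like gene with a near-identical neighbour, had a log2 ratio of day 3 over day 1 of -3.58 (-4.11 to -3.12) in the group and 1.58 in the other macrophages, from 286 and 23.7 CPM in the former and 8.81 and 26.3 CPM in the latter. Fxyd2 had -1.41 (-2.16 to -0.78) and 1.56. Hspb1, a small heat shock protein, and Serpinh1, a collagen chaperone, lie outside the rule for named genes and were chosen after their values were seen. Hspb1 had -1.12 (-1.59 to -0.71) and 2.53, and a UMI of it was found in 27 and 13 cells of the group. Serpinh1 had 1.03 (0.57 to 1.49) and -1.42, in 13 and 14 cells.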

How the results depend on the processing

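Of the shares, counts of genes and other summary values under each alternative, 35 were labelled as moved and are given below. The other 115 were labelled as unchanged, by a tolerance that is not stated here, so they may still differ from the main values. Among them are counts of higher genes after the shift of the median gene was removed. These are the counts given above for day 3 over day 1 in the group and for day 1 against the other macrophages. Both were smaller than the main counts. The share of macrophages was 7.04% on day 1 and 3.35% on day 3 with at least 2 UMIs of Cd163 and Lyve1, 4.75% and 1.67% with at least 5, 4.85% and 1.35% with 3 per 10000 UMIs, and 1.36% and 1.22% with at least 2 Lyve1 UMIs. Without thinning, 28.3% and 47.4% of the cells held Lyve1 and 94.1% and 80.3% held Cd163.

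For day 3 over day 1, the genes 2-fold higher numbered 271 with 3 per 10000 UMIs, 244 in cells of 5000 to 20000 UMIs, and 155 (136 lower) with at least 2 Lyve1 UMIs. A gene minimum of 20 UMIs gave 1484 higher and 499 lower, and of 1 UMI 3915 and 1229. Against the other macrophages on day 1, the numbers were 1548 higher and 861 lower with at least 2 Lyve1 UMIs, 1261 and 682 at a minimum of 20 UMIs, and 4762 and 917 at 1 UMI. On day 3 they were 982 and 685, 1247 and 735, and 5990 and 735, with 669 lower at 3 per 10000 UMIs, 310 higher with the median set to 0 and 326 higher among genes seen in at least 10 cells. The last setting and the one leaving out the cell with most UMIs of a gene were chosen after seeing the data.

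Of the named genes past 2-fold, 40 of 50 stayed past it under every alternative between days, 47 of 68 against the other macrophages on day 1 and 34 of 59 on day 3. Those under 2-fold in at least 1 alternative were, between days, C3, Cbr2, Ccl12, Cd74, Chil3, Ednrb, Gas6, Gpnmb, Hbegf and Maf, on day 1 Cd36, Cd74, Clec4n, Ear2, Egr1, Fabp5, Fscn1, H2-Aa, Hspa1a, Hsph1, Il1b, Il1rl1, Ltc4s, Ppbp, Pros1, Ptgs2, Ptx3, S100a8, Smoc2, Spp1 and Stab1, and on day 3 Acod1, Apoe, C3, C4b, Ccl12, Ccl7, Chil3, Clec10a, Des, Fscn1, Fxyd2, G0s2, Gal, Gpnmb, Hist1h1b, Il4ra, Klrd1, Maf, Mgl2, Nfib, Olfr655, Rrm2, Slco2b1, Spp1 and Stab1. Those that changed sign, with the cause not tested, were, between days, C3 (0.20 in cells of 5000 to 20000 UMIs) and, on day 1, Fabp5 (-1.42 with at least 2 Lyve1 UMIs), Hspa1a (-0.31 in cells low in it and Hspa1b) and Ptx3 (3.71 with ambient RNA subtracted). On day 3 with 3 per 10000 UMIs, Des had -3.58, Fscn1 -2.84, Gal -2.84 and Nfib -2.02. With at least 2 Lyve1 UMIs, Gal had -2.12 and Mgl2 -0.13. Without the highest Scrublet scores, Des had -2.70, Fscn1 -2.03 and Gal -1.41. In cells of 5000 to 20000 UMIs, Des had -1.04, Fscn1 -0.24, G0s2 0.088, Gal -1.80 and Hist1h1b -0.55. Olfr655 had -1.05 in cells low in Hspa1a and Hspa1b, and Gal -2.83 without the cell that held most of it.

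No paired analysis was possible because each day is 1 library of different mice and the labels give no replicate numbers. With 76 cells on day 3, low genes rest on few cells.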
